A study of Arabidopsis thaliana with 8 samples.

Results

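Ribosome footprints were set against total RNA in leaves of Arabidopsis thaliana that had received elf18, gene by gene and within the same lysates. The genes described were those with at least 50 coding-sequence counts in both RNA libraries of elf18 leaves, a rule that used RNA alone and no footprint value. The coding-sequence table held 27172 genes, of which 9126 met it; 7 of them had blank footprint values, and the 9119 others were tested.

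A ribosome covers a short stretch of the mRNA that it reads, and nuclease digestion leaves that stretch as a footprint. The number of footprints over a coding sequence, set against the amount of its mRNA, is used as a measure of how heavily the message is loaded with ribosomes relative to other messages. In leaves much of the mRNA encodes the photosynthetic apparatus, while elf18, a peptide from bacterial elongation factor Tu, is sensed by the receptor kinase EFR and starts pattern-triggered immunity.

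The plants were Col-0, 3 weeks old, and all of them, mock plants included, carried the transgene 35S:uORFsTBF1-LUC, in which the viral 35S promoter drives luciferase behind the upstream open reading frames of TBF1. Infiltration was with 10 µM elf18, and mock plants, used here only for reference, were given 10 mM MgCl2. Leaves were pooled for a lysate, 2 per plant from about 24 plants, and the lysate was divided into a part for RNA-seq and a part for footprints. With elf18 there were 2 lysates, numbered 1 and 3, hence 2 RNA and 2 footprint libraries. The harvest time after infiltration and whether the lysates came from separate growth batches are not given in the sources used here. The p-values therefore refer only to the spread between these lysates, which the test pools in large part over genes.

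The RNA libraries held 9127019 (lysate 1) and 12832674 (lysate 3) counts over coding sequences, and the footprint libraries 6202819 and 5272725. The tested genes took 95.5% to 97.4% of these counts. The footprint library of lysate 3 stood apart from the others: 246 of the tested genes had no footprint in it alone, and 208 of those had at least 10 footprints in lysate 1. In lysate 1 alone 23 genes had none, of which 12 had at least 10 in lysate 3. Across the 9119 genes, the log2 of CPM, counts scaled to library size, correlated at r = 0.888 between the RNA libraries, 0.885 between the footprint libraries, 0.843 between RNA and footprints in lysate 1 and 0.769 in lysate 3; genes are not independent replicates, and these values are descriptions. Of 6 mesophyll markers all were members, of 3 root markers none was.

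The ratio of footprint to RNA is given throughout as a log2 value from CPM scaled by TMM, a method that takes the typical gene as its zero. A value below 0 therefore says that a gene had fewer footprints for its RNA than the typical gene, and says nothing of the absolute number of ribosomes. Errors after ± are standard errors derived from the log2 ratio and the test statistic, with n = 2 libraries per assay. A gene was called when the Benjamini-Hochberg adjusted p of edgeR's quasi-likelihood test, over all 9119 genes, was under 0.05. Each gene had 2 residual degrees of freedom, and 8.75 more came from all genes together. Errors and p-values thus rest in large part on spread shared over genes.

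Ratios spread over a wide range. The median was -0.03 and the 1st and 99th percentiles were -3.59 and 1.96. The rule set a minimum on RNA and none on footprints, so it kept genes with few footprints and left out another 983 genes that had at least 50 footprints in both libraries; the extent of the high and low tails is set in part by this filter. Called genes numbered 396 with a higher and 347 with a lower ratio, 4.34% and 3.81% of the genes tested and 8.15% together. In 55.3% of genes both footprint CPM values lay on one side of both RNA values. The libraries of a lysate are paired by the labels, and a fit with a replicate block for the lysate, which leaves 1 residual degree of freedom against 2, called 619 higher and 545 lower. Leaving out 1 library moved the counts to between 272 and 583 higher and between 372 and 1118 lower, the highest count of lower genes being that without the lysate 1 footprints. Through all 4 of these fits 213 of the higher and 211 of the lower genes stayed called.

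The ratios of the 2 lysates correlated at r = 0.453 (rho = 0.463) across the 9119 genes, and 67.7% of genes had the same sign in both. This rose with RNA abundance: r was 0.335 among the 1942 genes whose smaller RNA count was 50 to 99 and 0.838 among the 1439 genes with at least 1000. The spread of the ratios was wider in lysate 3, with a standard deviation of 1.39 against 1.01. Exchanging the RNA libraries between lysates gave r = 0.441.

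**Figure D1:**
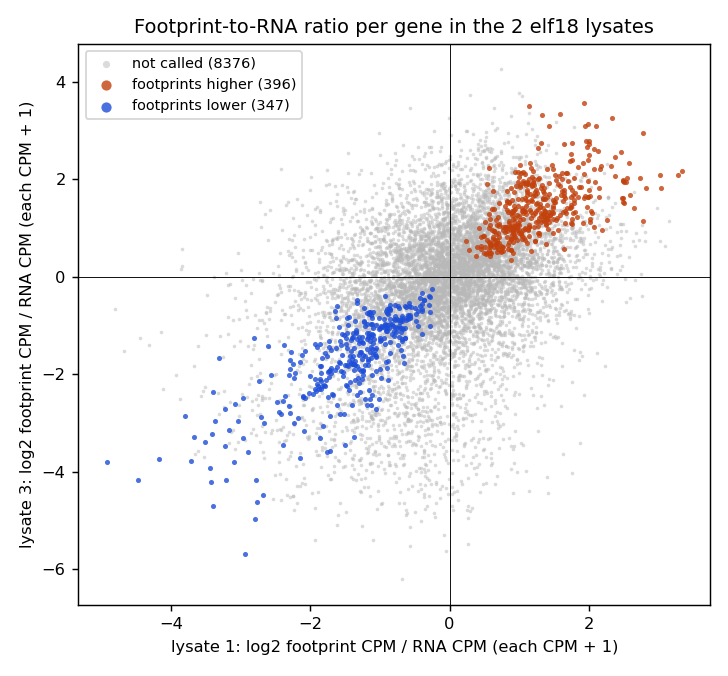
Log2 ratio of footprint CPM to RNA CPM (each with 1 CPM added) in lysate 1 (x axis) and in lysate 3 (y axis) for the 9119 genes of elf18 leaves. Each point is a gene, coloured by edgeR's call; the 396 higher and 347 lower genes lie in the quadrants where both lysates have the same sign, and uncalled genes spread further down in lysate 3.

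Genes of the photosynthetic apparatus had few footprints for their RNA. All 52 nuclear-encoded members examined passed the RNA rule, 41 of them were called lower and none higher, where 3.81% of all genes were lower, and their median ratio was -0.91 against -0.03 for all genes. In 46 of the 52 both footprint CPM values were below both RNA values, as in 28.1% of all genes. Calls depended on RNA level: 0.385% of genes with 4.099 to 12.21 RNA CPM in lysate 3 were lower, but 15.7% from 91.4 CPM upward. Among genes of the top RNA quartile spanning under 1.5 kb, 39.2% were lower. The 52 photosynthesis genes had a median RNA level of 3340 CPM. The count of lower members stayed between 40 and 46 under every alternative run, and 39 members were called lower in all 15 of them.

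Of the families in this group, LHCB1 and the Rubisco small subunits had the lowest medians, -2.48 and -1.89. The LHCB1 genes encode the main light-harvesting protein of photosystem II, and all 5 were lower, with ratios from -2.62 to -2.01. LHB1B2, a copy of LHCB1, had 6883 and 8417 RNA CPM in lysates 1 and 3 and 1288 and 1200 footprint CPM. Every footprint value was thus far below every RNA value, and the ratio was -2.62 ± 0.11 (adjusted p = 6.67e-07, edgeR), 6.15-fold lower than the typical gene. CAB1, another LHCB1 copy, had 4249 and 5272 RNA CPM against 762 and 884 footprint CPM (log2 -2.53 ± 0.12, adjusted p = 1.88e-06). All 4 RBCS genes, which encode the small subunit of the carbon-fixing enzyme Rubisco, were lower, from -2.80 to -1.60. RBCS2B had 731 and 737 RNA CPM and 111 and 98.9 footprint CPM, a ratio of -2.80 ± 0.17 (adjusted p = 3.93e-06) or 6.98-fold lower. RBCS1A, the most abundant of them, had 19363 and 25180 RNA CPM and 7426 and 7307 footprint CPM, which gave -1.60 ± 0.10. LHCB1 copies are near identical to each other, as are RBCS copies, and the handling of reads that match several genes is not given in the sources used here, so the division of counts among copies is uncertain.

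The other photosystem families had medians between -1.01 and -0.83, with single genes further down. The remaining antenna proteins of photosystem II were lower in 2 of 3 LHCB2 genes, median -0.91, and in 4 of 5 genes of LHCB3 to LHCB6, median -1.01; LHCB2.3 at -0.32 and LHCB4.2 at -0.45 were not called. The antenna proteins of photosystem I (LHCA) were lower in 4 of 4 genes, with a median of -0.97. Subunits of photosystem I (PSA) were lower in 9 of 10, median -0.92, and those of photosystem II (PSB) in 8 of 9, median -0.83. PSBX, a small membrane subunit of photosystem II, had 3139 and 4022 RNA CPM against 873 and 818 footprint CPM, at -2.08 ± 0.13.

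Calvin cycle enzymes apart from the Rubisco small subunits were closer to the typical gene: 2 of 5 were lower and the family median was -0.25. RCA, the Rubisco activase, had 16078 and 17354 RNA CPM and 13434 and 14597 footprint CPM, a ratio of -0.25 ± 0.06 (adjusted p = 0.0261, edgeR). GAPA, a glyceraldehyde-3-phosphate dehydrogenase of the chloroplast, was at -0.03 ± 0.08. The carbonic anhydrase CA1 was at 0.06 ± 0.10 and ATPC1, a subunit of the chloroplast ATP synthase, at 0.10 ± 0.12. The 52 photosynthesis genes thus ranged from -2.80 to 0.10.

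The 6 mesophyll markers (RBCS1A, 3 LHCB1 genes, CA1 and RCA) are photosynthesis genes, and 5 of them were lower. Of the vascular markers 3 of 5 were tested: 1 (SUC2) lay below 0 and 2 lay above, with a median of 0.06. Of guard cell markers 1 of 5 was tested, and of epidermis and trichome markers 2 of 5. Markers of other cell types were few: KCS6, a wax synthesis enzyme of the epidermis, was higher (log2 0.80 ± 0.18, adjusted p = 0.0222; 0.147 without the lysate 3 footprints), the phloem sucrose carrier SUC2 had -0.71 ± 0.21 (adjusted p = 0.0677; 0.00416 without the lysate 1 RNA and 0.00546 without the lysate 1 footprints) and the guard cell channel KAT1 had 0.49 ± 0.68 (adjusted p = 0.723, edgeR).

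**Figure D2:**
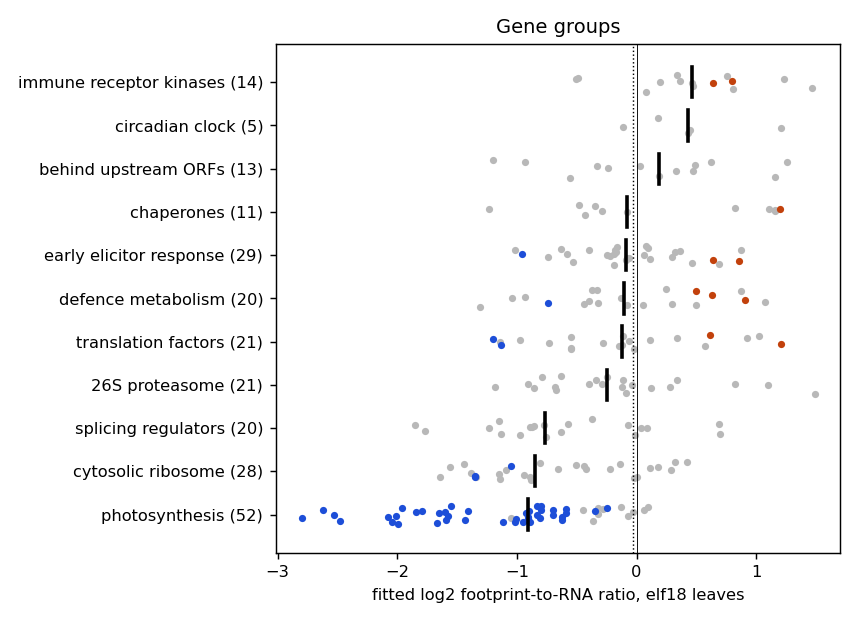
Fitted log2 footprint-to-RNA ratio (x axis) of the members of 11 gene groups in elf18 leaves, with the number of members tested in brackets. Each point is a gene, orange where called higher, blue where called lower and grey otherwise; black bars are group medians and the dotted line is the median of all 9119 genes. Photosynthesis genes reach -2.80, with a median of -0.91, and immune receptor kinases have a median of 0.47.

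Genes of the translation machinery had median ratios that differed by part, as their spans did. Among 28 annotated genes of cytosolic ribosomal proteins 3 were lower and none higher, where 3.81% of all genes were lower, with a median of -0.84, and over the 143 tested genes of the full families, annotated or not, 24 were lower and none higher, with a median of -0.89. The annotated count was 8 with the replicate block, 9 without the lysate 1 footprints and 2 without those of lysate 3; that of the full families was 45 without the lysate 1 footprints. SAC52, the large-subunit protein RPL10A, had 255 and 306 RNA CPM and 118 and 102 footprint CPM, a ratio of -1.35 ± 0.23 (adjusted p = 0.00465, edgeR). RPL23AA, also of the large subunit, was at -1.35 ± 0.29 (adjusted p = 0.0171). RPS13A of the small subunit was at -1.05 ± 0.27 (adjusted p = 0.0353), and its call was lost without the lysate 3 RNA (0.0535) or without either footprint library (0.0714 for lysate 1 and 0.0573 for lysate 3). Ribosomal proteins are encoded by families of similar copies, so the counts of single copies are uncertain here too. The median span was 1.69 kb in the annotated genes and 1.59 kb in the full families. Lower calls were more frequent among short genes of any kind: 13.1% of those spanning 1 to 1.5 kb and 6.87% at 1.5 to 2 kb. Whether ribosomal proteins differ in calls from other genes of like span was not tested.

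The list of translation factors, which also holds poly(A)-binding proteins and TCTP, fell on both sides. Of its 21 genes 2 were higher and 2 lower, beside 4.34% and 3.81% of all genes, and the median was -0.12. Genes such as eEF1A1, EIF3D and EIF5a met the count rule but were left out, as their names did not match the locus table. EIF3C, a core subunit of the initiation factor eIF3, had 162 and 149 RNA CPM and 309 and 412 footprint CPM, or 2.32-fold above the typical gene (log2 1.21 ± 0.21, adjusted p = 0.00586, edgeR). LOS1, the elongation factor eEF2 that moves the ribosome along the message, had 935 and 1183 RNA CPM and 1726 and 1508 footprint CPM (log2 0.61 ± 0.14, adjusted p = 0.0198). Both footprint values of each gene were above both RNA values. In the other direction TCTP, a conserved growth-related protein whose message is translationally controlled in animals, had 751 and 614 RNA CPM against 275 and 347 footprint CPM (log2 -1.13 ± 0.18, adjusted p = 0.00313). FBR12, an eIF5A protein that helps the ribosome through difficult peptide bonds, was at -1.20 ± 0.22 (adjusted p = 0.00794). Among 20 splicing regulators whose genes are known for unproductive splice forms none was called and the median was -0.76. Their median RNA level was 23.9 CPM, and calls were fewer at such levels than at high RNA. The lowest in test rank, SR45, had 26.9 and 72.5 RNA CPM and 12.0 and 15.6 footprint CPM, a ratio of -1.85 ± 0.62 (adjusted p = 0.101, and 0.00943 without the lysate 1 RNA). None of 21 proteasome subunits was called, with a median of -0.25; RPT1A, an ATPase of the regulatory particle, had 47.5 and 46.0 RNA CPM and 102 and 98.7 footprint CPM (adjusted p = 0.077). It was called higher with DESeq2 (0.0313), with at least 200 RNA counts (0.0335) and from all 8 libraries (0.0301). Leaving out the lysate 1 footprints called 1 proteasome subunit and 1 splicing regulator lower.

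Immune receptor kinases lay mostly above the typical gene. Of 14 members tested 12 had a ratio above 0 and the median was 0.47, while 2 were called higher, where 4.34% of all genes were, and none lower. The median of the same genes in mock leaves was also 0.47. Their median RNA level was 172 CPM, and 10.6% of genes with at least 91.4 RNA CPM in lysate 3 were higher. The count of higher members ranged from 0 to 5 over the alternatives; it was 5 with the replicate block, 5 without the lysate 1 RNA, 5 without the lysate 1 footprints and 1 without the lysate 3 footprints. FER, the receptor of RALF peptides that also acts as a scaffold for immune receptors, had 531 and 371 RNA CPM and 760 and 813 footprint CPM, which do not overlap (log2 0.80 ± 0.18, adjusted p = 0.0191, edgeR). LYK5, a receptor of chitin, had 276 and 262 RNA CPM and 409 and 431 footprint CPM (log2 0.64 ± 0.17, adjusted p = 0.0419; 0.0567 without the lysate 3 RNA and 0.158 without the lysate 3 footprints). FLS2, the flagellin receptor, had 158 and 170 RNA CPM and 242 and 333 footprint CPM, so that every footprint value was above every RNA value, and its ratio of 0.81 ± 0.22 had an adjusted p of 0.0501. That p was 0.0169 with the replicate block, 0.0351 without the lysate 3 RNA and 0.00423 without the lysate 1 footprints.

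EFR, the receptor of elf18 itself, had 67.3 and 21.9 RNA CPM and 87.0 and 122 footprint CPM. The footprint values were again above both RNA values, but the RNA values of the lysates lay far apart, and the ratio of 1.23 ± 0.50 was not called (adjusted p = 0.167, edgeR). It was called with the replicate block (0.0181), without the lysate 1 RNA (0.00292) and without the lysate 1 footprints (0.0375). BIK1, the cytoplasmic kinase that EFR and FLS2 share, was on the other side, with 206 and 243 RNA CPM and 145 and 174 footprint CPM (log2 -0.49 ± 0.23, adjusted p = 0.228).

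Genes that answer early to elicitors were close to the typical gene as a group, with a median of -0.09 over 29 members, 2 higher and 1 lower, beside 4.34% and 3.81% of all genes. Their median RNA level was 202 CPM, and from 91.4 RNA CPM in lysate 3 upward 10.6% of genes were higher and 15.7% lower. The count of higher members was 4 with the replicate block and 5 without the lysate 1 RNA, and no member was lower when any of the 4 libraries was left out. WRKY33, a transcription factor of camalexin synthesis, had 865 and 717 RNA CPM and 1474 and 1404 footprint CPM, 1.82-fold above the typical gene (log2 0.86 ± 0.13, adjusted p = 0.00231, edgeR). RBOHD, the NADPH oxidase of the oxidative burst, had 1086 and 1066 RNA CPM and 1575 and 1786 footprint CPM (log2 0.64 ± 0.11, adjusted p = 0.0059). Both stayed called under every alternative. MKS1, a substrate of the kinase MPK4, was lower with 165 and 169 RNA CPM against 86.1 and 84.9 footprint CPM (log2 -0.96 ± 0.26, adjusted p = 0.046), and its adjusted p was 0.0628 to 0.122 when 1 library was left out.

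In defence metabolism 3 of 20 members were higher and 1 was lower, beside 4.34% and 3.81% of all genes, and 9 members had a ratio above 0. Their median RNA level was 203 CPM. Of genes with at least 91.4 RNA CPM in lysate 3, 10.6% were higher and 15.7% lower. The 3 higher members are beta-glucosidases that release products from glucosinolates: TGG1 and TGG2, the myrosinases of the leaf, and PEN2, which acts in pathogen-induced indole glucosinolate breakdown. TGG1 had 1693 and 1598 RNA CPM and 3114 and 3084 footprint CPM, a ratio of 0.91 ± 0.09 (adjusted p = 0.000157, edgeR). TGG2 was at 0.63 ± 0.13 (adjusted p = 0.0138, and 0.0738 without the lysate 3 footprints) and PEN2 at 0.50 ± 0.11 (0.0185, and 0.0676 without the lysate 3 footprints). The lower member was OPR3, a reductase of jasmonate synthesis, which had 670 and 666 RNA CPM and 416 and 382 footprint CPM (log2 -0.74 ± 0.15, adjusted p = 0.0105). The highest ratio of the list, 1.07 ± 0.33, was that of LOX2, a lipoxygenase of the same pathway, and it was not called (adjusted p = 0.0744). With the replicate block 5 members were higher and 2 lower; without the lysate 1 RNA 2 were lower.

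Among 11 chaperones SHD, the HSP90 of the endoplasmic reticulum, was higher, with 73.5 and 58.8 RNA CPM and 134 and 170 footprint CPM (adjusted p = 0.0327, edgeR), a call lost without the lysate 3 RNA (0.0568) or the lysate 3 footprints (0.186). The chaperone median was -0.08, and 0.01 when only library totals were used for scaling, which moved the median of all genes from -0.03 to 0.04. None of 5 clock genes was called, with a median of 0.43; GI, a large clock protein of evening, had a ratio of 1.21 ± 0.46 (adjusted p = 0.141, 0.0464 with the replicate block and 0.0115 without the lysate 1 RNA). Of 8 genes often used as references, the actin ACT2 was lower at -0.76 ± 0.18 (adjusted p = 0.0271, and 0.078 without the lysate 3 RNA); without the lysate 1 footprints 2 were lower and 1 higher.

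**Figure D3:**
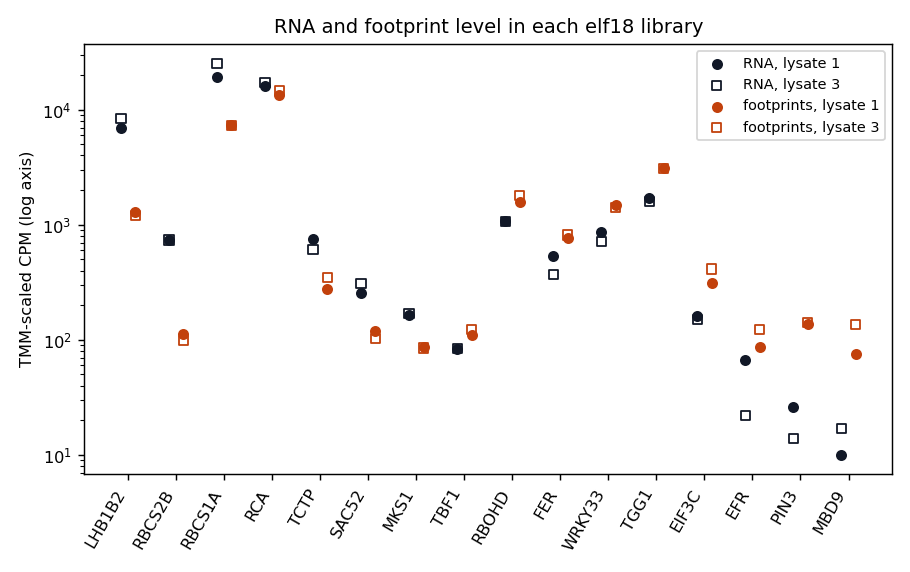
RNA (black) and footprint (orange) level in each elf18 library, as TMM-scaled CPM on a log axis, for 16 genes named in the text; filled circles are lysate 1 and open squares lysate 3. Footprints lie below RNA from LHB1B2 to MKS1 and above it from TBF1 to MBD9; for EFR the RNA values, 67.3 and 21.9, are the most widely spaced.

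Main reading frames that lie behind regulatory upstream reading frames were measured at 13 of 23 loci matched by name. None was called and the median was 0.19. SAMDC2, SACL3, NMT2 and NMT3 also met the count rule but were left out, as their names did not match the locus table. TBF1, the heat-shock-factor-like regulator whose leader stands in the transgene (HSF4 in the locus table), had 83.0 and 83.6 RNA CPM and 109 and 122 footprint CPM. The footprint values were above the RNA values, and the ratio of 0.47 ± 0.29 had an adjusted p of 0.379 (edgeR). SAMDC, an enzyme of polyamine synthesis with a well-studied upstream frame, had 2322 and 2922 RNA CPM and 2066 and 2106 footprint CPM, at -0.33 ± 0.11 (adjusted p = 0.11, 0.0106 with the replicate block and 0.000163 without the lysate 1 RNA).

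The ratio followed the span of the gene, the length from start to end with introns, known for 9109 of the genes from RefSeq TAIR10.1. Genes under 1 kb had a median of -0.995 in lysate 1 and -1.04 in lysate 3, and genes over 6 kb 0.95 and 0.915, with each class between in order. Of the 310 genes under 1 kb 17.1% were lower and 0 higher; of the 592 over 6 kb 23.8% were higher and 0.169% lower. The median span was 5.07 kb in higher genes, 1.54 kb in lower genes and 2.64 kb in the rest. Log2 span correlated with the ratio at r = 0.476 in lysate 1 and 0.384 in lysate 3. The same order was found in mock leaves, with r = 0.35 and 0.576, and in each quartile of RNA level. Points share library and depth, and the span stands in for coding length, which was not used here.

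Span and gene group moved together, and their parts in these ratios were not tested. Photosynthesis genes had a median span of 1.47 kb and immune receptor kinases 3.34 kb. Set against the median of their own span class, photosynthesis genes were still lower by a median of -0.33, with 40 of 52 below, and receptor kinases higher by 0.40, with 11 of 14 above. Early elicitor-response genes, median span 1.81 kb, were above their class in 24 of 29, by a median of 0.31. Cytosolic ribosomal proteins, median span 1.69 kb, differed from their class by a median of -0.22, with 17 of 28 below, and the full families by -0.33, with 100 of 143 below. Splicing regulators, median span 3.02 kb, were below it by -0.76 in 16 of 20. Translation factors, median span 2.8 kb, differed from their class by a median of -0.43, with 12 of 21 below. Set against span class, translation factors thus had a lower median than the annotated ribosomal proteins.

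Exceptions to the order, picked after their values were seen, were few. The longest lower gene was ACC2, an acetyl-CoA carboxylase spanning 12.6 kb, with 73 and 207 RNA counts against 2 and 0 footprints. NdhM, a subunit of the chloroplast NADH dehydrogenase-like complex spanning 1.09 kb, was higher with 27.5 and 30.8 RNA CPM and 68.0 and 127 footprint CPM (log2 1.74 ± 0.43, adjusted p = 0.0307, edgeR).

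**Figure D4:**
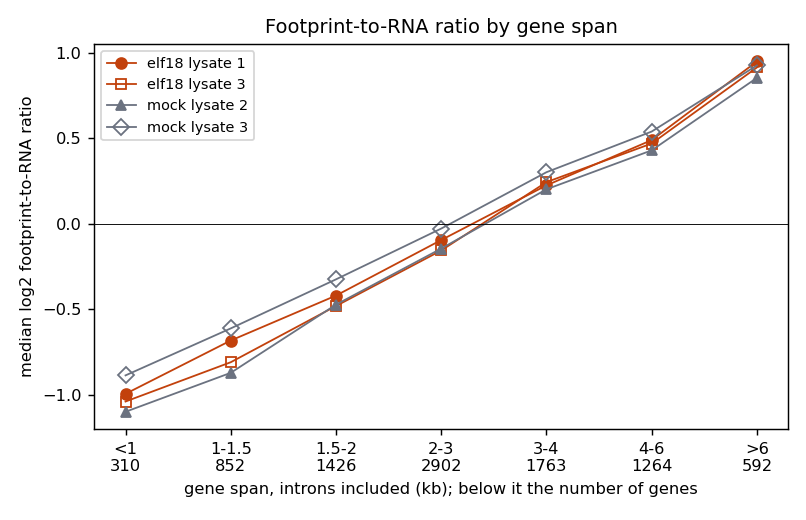
Median log2 footprint-to-RNA ratio (y axis) in 7 classes of gene span (x axis, kb, with the number of genes) for the elf18 lysates 1 and 3 (orange) and the mock lysates 2 and 3 (grey). All 4 lines climb from about 1 log2 unit below the typical gene in the shortest class to 0.854 to 0.95 in the longest.

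The highest ratios among called genes without overlap belonged to genes of low RNA. MBD9, a methyl-CpG-binding domain protein, had 10.0 and 16.9 RNA CPM and 74.5 and 137 footprint CPM, 7.83-fold above the typical gene (log2 2.97 ± 0.49, adjusted p = 0.00395, edgeR). PIN3, a carrier that exports auxin from cells, had 26.1 and 13.9 RNA CPM and 136 and 141 footprint CPM (log2 2.79 ± 0.40, adjusted p = 0.00197). In both genes the footprint values were several times the RNA values of either lysate. PTAC2, of the plastid transcription complex, was at 2.68 ± 0.51 (adjusted p = 0.00916; 0.149 without the lysate 3 footprints), the kinase WNK2 at 2.68 ± 0.64 (0.027; 0.087 without the lysate 3 footprints) and TTN7, the cohesin subunit SMC3, at 2.66 ± 0.56 (0.0142). The loci AT5G28740, AT4G36080 and AT5G38850, which have no symbol in the locus table, were at 2.81, 2.76 and 2.67, and the last was not called without the lysate 1 footprints (0.102). These 8 genes were picked as extremes, and RNA is the divisor of the ratio. Among all genes with 4.099 to 12.21 RNA CPM in lysate 3, the median ratio was 0.353 in lysate 3 and -0.254 in lysate 1. In mock leaves the ratios of the 8 genes were 0.59 (WNK2) to 1.62 (PIN3), and MBD9 had 1.32. Their spans ran from 2770 to 18261 bp. Of the 983 genes outside the rule with at least 50 footprints in both libraries, 27 had no RNA count in either.

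The lowest ratios belonged to genes with RNA and no footprint. In 22 genes neither lysate gave a footprint, against 105 to 339 RNA counts summed over the lysates, and 12 of the 22 were called lower. For these, the fold is a lower bound from a floor of 3 footprints over the group. The bound covers counting error only and not the spread between lysates, in which 208 genes had none in lysate 3 alone but at least 10 in lysate 1. MYB2, a transcription factor of drought responses, had 53 and 286 RNA counts and was at least 62.6-fold lower, AT1G54260 had 156 and 151 and was at least 56.6-fold lower, and CLPS3, of mRNA 3′ end processing, had 95 and 115 and was at least 38.7-fold lower. TIM23-1, of mitochondrial protein import, had 118 and 76 and was at least 35.8-fold lower. AT3G50350, AT4G18460, AT2G47880 and AT5G44582 were at least 55.7-, 52.2-, 48.9- and 48.3-fold lower. The calls of CLPS3 and TIM23-1 did not hold with the replicate block (adjusted p = 0.0534 and 0.0656, edgeR). Without the lysate 3 RNA none of these 8 was called (0.0942 to 0.631), and without the lysate 1 RNA 7 were not (0.0664 to 0.525), MYB2 being the exception. In mock leaves CLPS3 had 208 and 109 footprints, and 20 of the 22 genes had a footprint in at least 1 mock library.

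At the edge of the RNA rule the median ratio was -0.00387 in 455 genes whose smaller RNA count was 50 to 59 and 0.117 in 471 genes at 40 to 49.

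The ratios of elf18 leaves were compared with those of mock leaves by an assay-by-treatment interaction fitted to the 8 libraries. edgeR called 0 of the 9119 genes (0.0%), with 392 at an unadjusted p under 0.05, and 0 with the replicate block. DESeq2 called 8 of the genes to which it gave an adjusted p. It fitted a difference for FLS2, EFR, BIK1, TBF1 and MKS1, among others, but gave them no adjusted p, so these could not be called by it. The mean ratios of elf18 and mock leaves correlated at r = 0.51 across genes, and in mock leaves 355 genes were higher and 273 lower. WRKY33 had a mock ratio of 0.81 beside 0.86 with elf18, RBCS2B -2.60 beside -2.80, and RCA -0.25 in both. Group medians in mock leaves were 0.47 for immune receptor kinases, beside 0.47 with elf18, and -0.71 for photosynthesis genes, beside -0.91. For annotated ribosomal proteins they were -0.79 beside -0.84. The early elicitor-response genes had 0.13 in mock beside -0.09, and defence metabolism 0.2 beside -0.1. Differences of group medians were not tested.

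The 8 genes that DESeq2 called include the LHCB1 copies LHB1B1 and LHB1B2 and the Rubisco gene RBCS1A, each lower with elf18 than in mock. In the CPM that follow, mock values were scaled by TMM over all 8 libraries and elf18 values over the elf18 libraries alone. LHB1B2 had 2196 and 2017 footprint CPM in mock against 1288 and 1200 with elf18, and 7820 and 7594 RNA CPM against 6883 and 8417. Its difference was -0.74 (adjusted p = 0.000795, DESeq2; 0.654, edgeR). AGB1 and XLG2 encode a beta subunit and an extra-large alpha subunit of heterotrimeric G proteins, which act beside immune receptors. For AGB1 the RNA was 77.8 and 101 CPM in mock and 476 and 466 with elf18, while footprints were 90.4 and 93.2 and then 214 and 208. The RNA thus differed more between the treatments than the footprints did; in whole leaves a change in the number of cells of a type and in RNA per cell cannot be told apart. The ratio was 0.04 in mock and -1.16 with elf18 (difference -1.19, adjusted p = 0.0146, DESeq2; 0.999, edgeR). XLG2 went from 1.01 to 0.16 and the peroxidase PER4 from 0.77 to -0.25. BGAL1, a beta-galactosidase of the cell wall, had the opposite sign, with 0.74 in mock and 1.35 with elf18 (difference 0.62, adjusted p = 0.0114, DESeq2; 0.999, edgeR), as did AT2G45180 with -0.72 and -0.20.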

How the data were processed

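The authors deposited unnormalised counts for each coding sequence, whole numbers with totals that differ between libraries. CASAVA 1.8.2, Bowtie2 2.0, HTSeq and the build TAIR10 are named in the submitters' processing notes. Trimming, footprint lengths, strand setting and multiply matching reads are not given in the sources used here, so overlapping and antisense genes cannot be told apart. A further deposited table of RNA counts over exons served only for a share outside coding sequence that is not reported.

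The tests used edgeR 4.0.16 (TMM, glmQLFit, glmQLFTest) under R 4.3.3, with limma 3.58.1 and DESeq2 1.42.0 as alternatives, on genes with at least 50 counts in both elf18 RNA libraries. The fit had assay alone, without a block. RNA and footprints of a lysate are paired by the labels, since part of each lysate went to each assay, but the deviations of lysate 1 from the group means correlated at r = 0.00487. Per-lysate ratios are log2 of (CPM + 1). A count of 3 equals 0.234 to 0.569 CPM in the elf18 libraries, for counting error only. The fits were tested on simulated data, where they left most of the changed genes uncalled except among those set 4-fold higher. An uncalled gene is therefore not shown to lie at the typical ratio.

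Genes were named by rule: TBF1, EFR, FLS2, WRKY33 and BIK1, the 8 highest and 8 lowest called ratios without overlap, and up to 3 called members per list and direction, or the member of largest statistic where none was called. RBCS1A, RCA, GAPA, CA1, ATPC1, PSBX, LHCB2.3, LHCB4.2, LOX2, the genes given as exceptions to the span order and the genes of the DESeq2 interaction were named after their values were seen. The members and lists were chosen with earlier results of these data known. Names came from a RefSeq locus table. List members whose names did not match it were left out, except in the full ribosomal protein families. Upstream-peptide loci did not reach the count rule, and protein lengths and leader motifs were not analysed here.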

Additional observations from a re-analysis of the deposited data

How the results depend on the processing

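No gene called in the fit reported above was called in the opposite direction under any of the 15 alternatives. The counts of higher and lower genes were 640 and 632 with DESeq2, 577 and 350 with limma voom, 376 and 367 with RLE factors, 498 and 320 with library totals, 540 and 409 from all 8 libraries and 619 and 545 with the replicate block for the lysate. Among filters they were 563 and 565 with none, which moved the median of all genes tested to 0.1361, 188 and 249 with filterByExpr, 202 and 270 with a mean of at least 50 counts, 563 and 538 with at least 200 RNA counts, and 437 and 421 for genes with footprints in both libraries, an alternative chosen after seeing the data. Leaving out each library gave 272 to 583 higher and 372 to 1118 lower genes. Both filterByExpr and the filter on the mean ended the calls of FER, LOS1, KCS6, LYK5, MKS1, ACT2, SHD, TGG2, PEN2, TTN7, WNK2 and AT5G38850. Calls of the 8 named genes without footprints ended for 8 with limma voom, 8 with filterByExpr, 7 with the filter on the mean and 5 with no filter. The list counts per left-out library were added after seeing the data. All 15 settings called 161 of the 396 higher and 206 of the 347 lower genes, where those under 200 RNA counts could not pass. The chaperone median turned from -0.08 to 0.01 with library totals, which moved that of all genes from -0.03 to 0.04. For the difference from mock, edgeR called 0 and the replicate block 0, and DESeq2 called 8 of the genes to which it gave an adjusted p. With 2 libraries per assay and few residual degrees of freedom, and with 246 genes lacking footprints in lysate 3 alone, ratios of genes with low counts are the least certain.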
